A study of Drosophila melanogaster with 6 samples.

Results

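Glycolysis and arginine kinase, which together supply and buffer ATP, were described here in sorted mushroom body output neurons of Drosophila melanogaster through 10 genes: Pgi, Pfk, Ald, Tpi, Gapdh1, Gapdh2, Pgk, Eno, PyK and Argk. The genes were chosen by symbol, and all 10 had a row in the authors' deposited table of 17117 genes, 9286 of which had reads. The tested libraries came from flies with UAS-bantam_sponge, a transgene whose transcript is meant to bind the microRNA bantam and keep it from its targets. The control libraries came from flies with UAS-scramble_sponge. Both genotypes also carried UAS-CD8::GFP and the split driver R14C08-p65.AD with R15B01-GAL4.DBD, named MB011B in the labels, which drive GFP and sponge in the output neurons β′2mp, β′2mp_bilateral and γ5β′2a. There were 3 libraries of each genotype, labelled as biological replicates. The flies were mated females, 3 to 4 days old, and brains were taken at ZT12 to ZT13.5 (hours after lights-on). The number of brains per library is not stated in the sources used here.

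Glycolysis breaks glucose down to pyruvate in the cytosol, spending ATP in its first steps and earning it back in its last ones. Pyruvate is then burnt in mitochondria or reduced to lactate. In the fly brain, glia are known to run much of the glycolysis and to pass lactate and alanine to neurons, which burn them. Arginine kinase moves phosphate between ATP and arginine, and phosphoarginine is the invertebrate counterpart of phosphocreatine, a quick reserve of high-energy phosphate in muscle and nerve.

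The comparison of bantam sponge with scramble sponge asks which messenger RNAs change when bantam is held back in these neurons. The 10 transcripts were abundant in both genotypes, and none differed between them at an adjusted p under 0.05. Of their log2 fold changes (bantam sponge over scramble sponge) 9 lay between −0.13 and 0.48, and that of Pfk was 1.26, in the authors' deposited table. The 95% intervals of these folds reached 2.77 to 3.23 log2 units to either side, so changes of several-fold were not detectable in any of the 10 genes.

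The deposited values are 1 fold, 1 mean log2 CPM (CPM are read counts scaled to library size; the mean is over both genotypes) and 1 exact-test p per gene. Values per library were not analysed here. The level in each genotype was therefore inferred from the deposited mean and fold, and its error from the spread between libraries that the deposited p implies. Effective library sizes, those by which counts are scaled to CPM, were solved from genes with single reads in the table. They ran from 8.18 to 119 megareads in bantam sponge and from 5.31 to 98.0 megareads in scramble sponge. Being scaling sizes, they need not equal the number of reads sequenced. Reads copied over 25 PCR cycles are not independent molecules, so library size says less about precision than the spread between libraries does. In sorted material, fewer cells of a type and less RNA per cell cannot be told apart.

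The sorted cells carried abundant neuronal transcripts. The vesicle gene nSyb had a mean log2 CPM of 10.35, the microtubule-associated gene futsch 9.74 and the glutamate transporter gene VGlut 10.70 in the authors' deposited table, with log2 folds of 0.30, −0.04 and −0.20. The 7 pan-neuronal markers had 4 folds above and 3 below 0. They summed to an inferred 4427 CPM in bantam sponge and 4273 CPM in scramble sponge. Glycolytic enzymes and arginine kinase are also abundant in muscle, whose markers ranged widely in level. The myosin gene Mhc was at −0.76 and Act88F at −3.59 mean log2 CPM in the authors' deposited table. Both are among the lowest of the muscle markers and were named after their values were seen. The 7 muscle markers (2 folds above, 5 below 0) summed to an inferred 69.9 CPM in bantam sponge and 117 CPM in scramble sponge; sums of markers leave out genes under 0 mean log2 CPM. The muscle genes Mlc2 and Act57B, the highest of these, had mean log2 CPM of 5.50 and 4.32 and log2 folds of −0.02 and −2.71 in the authors' deposited table. The part of muscle RNA in the levels of the 10 genes was not tested.

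All 10 genes were among the most abundant 2.5% of the 9286 genes with reads, and 7 among the most abundant 1%. By mean CPM, which is not corrected for length, Argk stood 4th, Eno 7th and Ald 14th. Gapdh2, PyK, Gapdh1 and Pgi held ranks 31, 33, 84 and 92. Tpi, Pgk and Pfk followed at ranks 123, 148 and 226. The mean CPM of the 10 genes summed to 18375, which is 1.84% on the CPM scale. That is an average over libraries scaled to their sizes, not a share of pooled reads. By genotype the summed levels were 19517 CPM in bantam sponge and 17234 CPM in scramble sponge as inferred from the table.

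**Figure D1:**
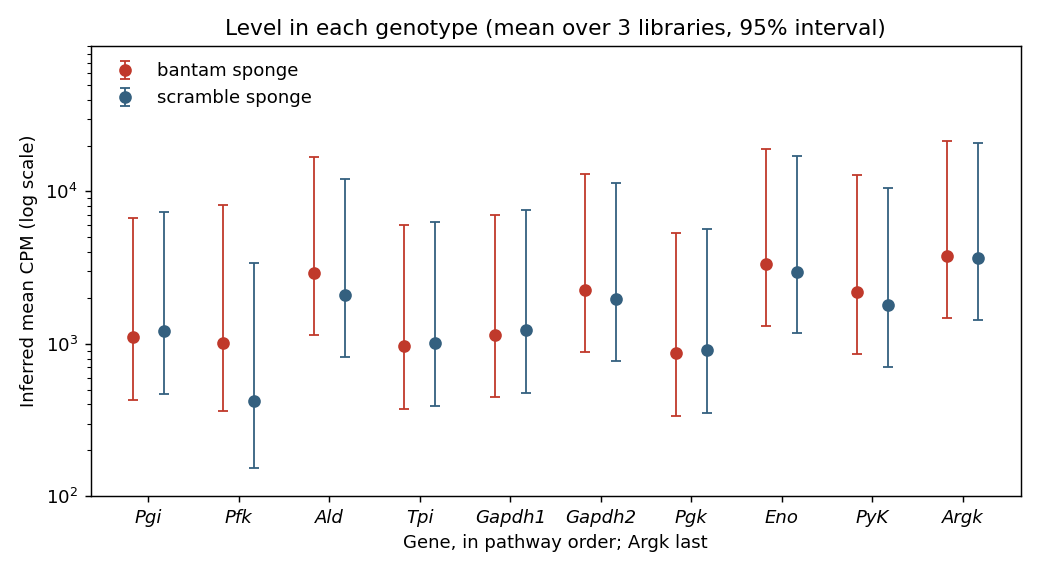
Inferred mean CPM (log scale) of each gene in bantam sponge (red, left) and scramble sponge (blue, right), 3 libraries each. Bars are the 95% intervals implied by the deposited p, and those of the genotypes overlap for every gene, Pfk included (1010 CPM in bantam sponge and 423 CPM in scramble sponge).

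The steps that prepare glucose for cleavage were represented by Pgi, Pfk and Ald. Pgi, phosphoglucose isomerase, turns glucose 6-phosphate into fructose 6-phosphate (2R, 8910900 to 8914069, minus strand, dm6). Its level was an inferred 1106 CPM in bantam sponge (95% interval 430 to 6690) and 1208 CPM in scramble sponge (470 to 7307). Its log2 fold change was −0.13 (−2.97 to 2.72) in the authors' deposited table (exact-test p = 0.925). The genotypes were thus close in mean, and the interval allows changes of several-fold in either direction.

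Pfk encodes phosphofructokinase, which adds the second phosphate and commits the sugar to glycolysis, a main point of control of the pathway (2R, 10109740 to 10117457, plus strand). Its level was an inferred 1010 CPM in bantam sponge (95% interval 365 to 8129) and 423 CPM in scramble sponge (153 to 3402). This was the widest gap between genotypes among the 10 genes, a log2 fold change of 1.26 (−1.97 to 4.49) in the authors' deposited table (exact-test p = 0.415; adjusted p = 1). Expressed as a ratio, Pfk was 2.39-fold higher in bantam sponge with an interval of 0.255 to 22.4, which includes no change. Of the 226 genes at or above the level of Pfk, 2 had a fold at least as high, Pfk itself counted. Pfk is the least abundant of these 226 genes, and folds are wider at lower levels. The count therefore says little about how unusual its fold is.

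The spread between libraries implied by the deposited p was also larger for Pfk than for the other 9 genes. It is the dispersion that the test used, not a spread measured here from values per library. The dispersion implied by its fold and p in the authors' deposited table was 1.48, a coefficient of variation between libraries of 121%. Of the 190 other genes nearest to it in level that had an interval, 4 had a higher dispersion, and their median was 1.31. The other 9 genes had dispersions of 1.15 to 1.23, each under the median of its own neighbours in level. Dispersion was lower at higher levels (neighbours of Pfk had a median of 1.31, those of Argk 1.22), and Argk and Eno have few neighbours above them, so their place among neighbours says little. Which libraries set the spread of Pfk cannot be read from the table.

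Ald, aldolase, which cleaves fructose 1,6-bisphosphate into triose phosphates, is named Ald1 in the Ensembl annotation (3R, 26254069 to 26261591, minus strand). Its inferred level was 2906 CPM in bantam sponge (95% interval 1143 to 16903) and 2086 CPM in scramble sponge (820 to 12134). The log2 fold change of 0.48 (−2.31 to 3.27) was the next highest after Pfk in the authors' deposited table (exact-test p = 0.721). This interval also contains 0.

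Tpi, triose phosphate isomerase, interconverts the products of aldolase (3R, 30132981 to 30134599, minus strand). It averaged an inferred 970 CPM in bantam sponge (95% interval 375 to 6021) and 1009 CPM in scramble sponge (390 to 6266), a log2 fold change of −0.06 (−2.94 to 2.82) in the authors' deposited table (exact-test p = 0.967). The means of the genotypes were nearly equal.

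Gapdh1 and Gapdh2 encode closely similar forms of glyceraldehyde 3-phosphate dehydrogenase, the step that yields NADH. Gapdh2 (X, 15868145 to 15869661, plus strand) had the higher level, an inferred 2243 CPM in bantam sponge (95% interval 883 to 13010) and 1962 CPM in scramble sponge (773 to 11384). Gapdh1 (2R, 7791901 to 7793380, minus strand) had 1149 CPM in bantam sponge (446 to 7031) and 1226 CPM in scramble sponge (475 to 7500). Their log2 fold changes were on opposite sides of 0, 0.19 (−2.60 to 2.98) for Gapdh2 and −0.09 (−2.95 to 2.77) for Gapdh1, in the authors' deposited table (exact-test p = 0.885 and 0.946). Gapdh2 made up 66.1% of the summed level of the pair in bantam sponge and 61.6% in scramble sponge. Sources used here do not say how reads matching both genes were counted, and the split between them is less certain than their sum, 3392 CPM in bantam sponge and 3188 CPM in scramble sponge.

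Pgk, phosphoglycerate kinase, carries out the first step of the pathway that yields ATP (2L, 2746880 to 2753068, minus strand). It averaged an inferred 865 CPM in bantam sponge and 913 CPM in scramble sponge. The log2 fold change was −0.08 (−2.96 to 2.80) in the authors' deposited table (exact-test p = 0.955). The means of both genotypes were close, and the interval is wide.

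Eno, enolase, makes phosphoenolpyruvate (2L, 1724768 to 1729636, minus strand). It was the highest of the glycolytic genes by CPM, again not corrected for length, at an inferred 3327 CPM in bantam sponge (95% interval 1315 to 19036) and 2968 CPM in scramble sponge (1173 to 16986). Its log2 fold change was 0.16 (−2.60 to 2.93) in the authors' deposited table (exact-test p = 0.901). PyK, pyruvate kinase, which transfers the last phosphate to ADP and releases pyruvate, lies on 3R (22367536 to 22372746, plus strand). Its inferred level was 2191 CPM in bantam sponge (95% interval 860 to 12818) and 1800 CPM in scramble sponge (707 to 10532). The fold of PyK was 0.28 on the log2 scale (−2.52 to 3.08) in the authors' deposited table (exact-test p = 0.833).

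Argk, arginine kinase, is named Argk1 in the annotation (3L, 9048781 to 9066027, minus strand). By CPM, not corrected for length, it was the highest of the 10 genes, at an inferred 3752 CPM in bantam sponge (95% interval 1482 to 21525) and 3639 CPM in scramble sponge (1437 to 20877). Of the 10 genes it had the fold closest to 0, a log2 value of 0.04 (−2.73 to 2.82) in the authors' deposited table (exact-test p = 0.974). The genes ranked above Argk were pros, Atpalpha and COX1.

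**Figure D2:**
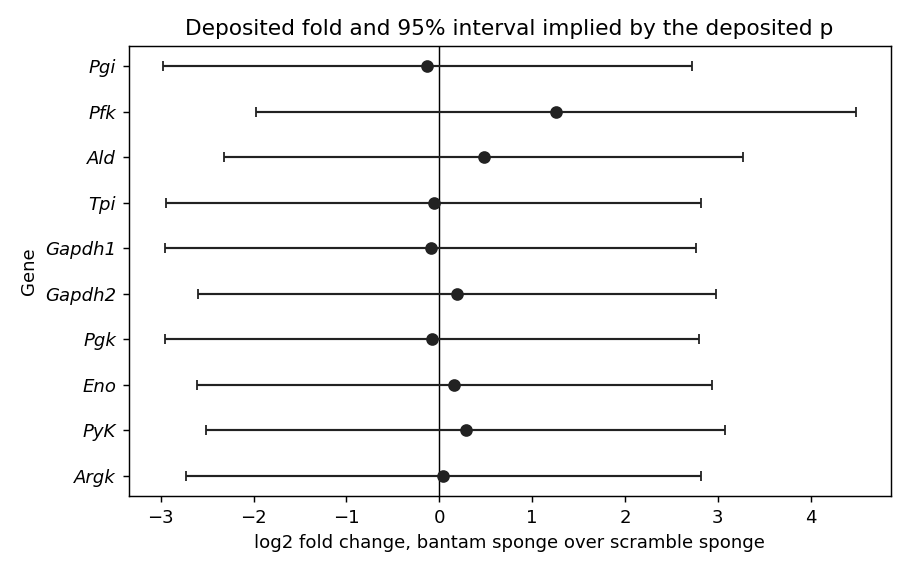
Log2 fold change of each gene (point; bantam sponge over scramble sponge) with the 95% interval implied by the deposited p (bar), in pathway order from top to bottom. Every interval contains 0, and the point of Pfk at 1.26 lies furthest from it.

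None of the 10 genes passed an adjusted p of 0.05, or an unadjusted one, when p-values of the exact test run by the authors in edgeR were adjusted by Benjamini-Hochberg across 17117 rows, and every adjusted p was 1. Of those rows, 0% passed the adjusted threshold and 2.27% the unadjusted one, which is 4.18% of the rows with reads. Among all 226 genes at or above the level of Pfk, 0 passed the unadjusted threshold, and the smallest exact-test p there was 0.0988. To reach an unadjusted p of 0.05 the 10 genes would have needed folds of 6.82 (Eno) to 9.38 (Pfk). Reaching 0.05 after a Bonferroni correction over the table would have taken folds of 350 to 1298.

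As a group the 10 folds were 6 above and 4 below 0, with a median log2 fold change of 0.10 in the authors' deposited table. The genes with reads had a median of −0.13 and 46.5% of folds above 0. At or above the level of Pfk the median was 0.07, with 57.5% above 0. The 4 folds below 0, those of Pgi, Tpi, Gapdh1 and Pgk, are all closer to 0 than that median of −0.13, and they turn positive when folds are centred on it. Folds within 0.5 of 0 were seen for 9 of the 10 genes and for 87.6% of all genes at that level.

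**Figure D3:**
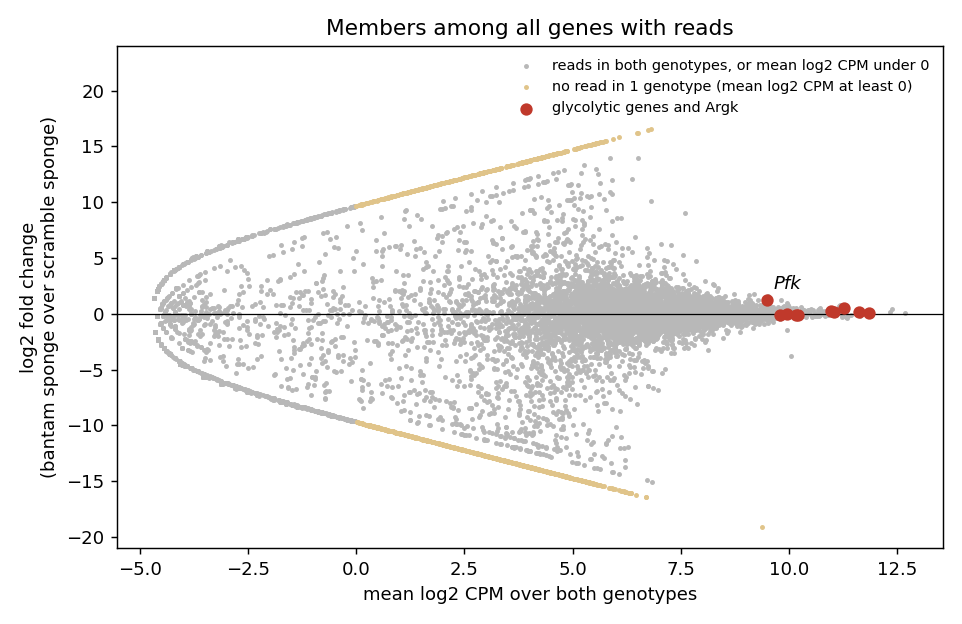
Log2 fold change against mean log2 CPM for the 9286 genes with reads, from the authors' deposited table, with the 10 genes in red. Folds narrow towards high levels, where all 10 lie between 9.48 and 11.85 mean log2 CPM; folds of genes with no read in 1 genotype (tan) depend on the prior count and form the outer arms.

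Levels of different genes can be compared only per length. Per kilobase of exon, over both genotypes, Gapdh2 was highest at 1457 CPM per kb (95% interval 717 to 4397), the 5th highest of 7217 genes with an annotated length and a mean log2 CPM of 0 or more. Argk followed at 1055 (521 to 3163), PyK at 890 (437 to 2699), Eno at 847 (418 to 2535) and Gapdh1 at 802 CPM per kb (390 to 2495). Ald and Tpi had 655 and 635, Pgi 470 and Pgk 421 CPM per kb. Pfk was lowest at 164 CPM per kb (75.0 to 592), rank 697. The intervals of neighbours in this order overlapped in all 9 pairs. Those of Gapdh2 and Pfk, 8.91-fold apart, did not overlap by exon union. This separation depends on the length used. By longest transcript, where Pfk had 204 CPM per kb and Gapdh2 was unchanged, intervals scaled to that length overlap.

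Other steps of glycolysis were measured too. Hex-A, the main hexokinase, which starts the pathway, had 74.0 CPM per kb, and Pfk stood 2.21-fold above it. Pglym78, phosphoglycerate mutase, which links Pgk to Eno, had 1429 CPM per kb, close to Gapdh2. The lactate dehydrogenase gene ImpL3 (now Ldh), chosen after its values were seen, had 59.3 CPM per kb. Among the shuttles that carry the electrons of cytosolic NADH to mitochondria, Mdh2, a malate dehydrogenase, had 869 and Gpdh, glycerol 3-phosphate dehydrogenase, 270 CPM per kb. The aspartate aminotransferase genes Got1 and Got2, named after their values were seen, had 156 and 50.6 CPM per kb.

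**Figure D4:**
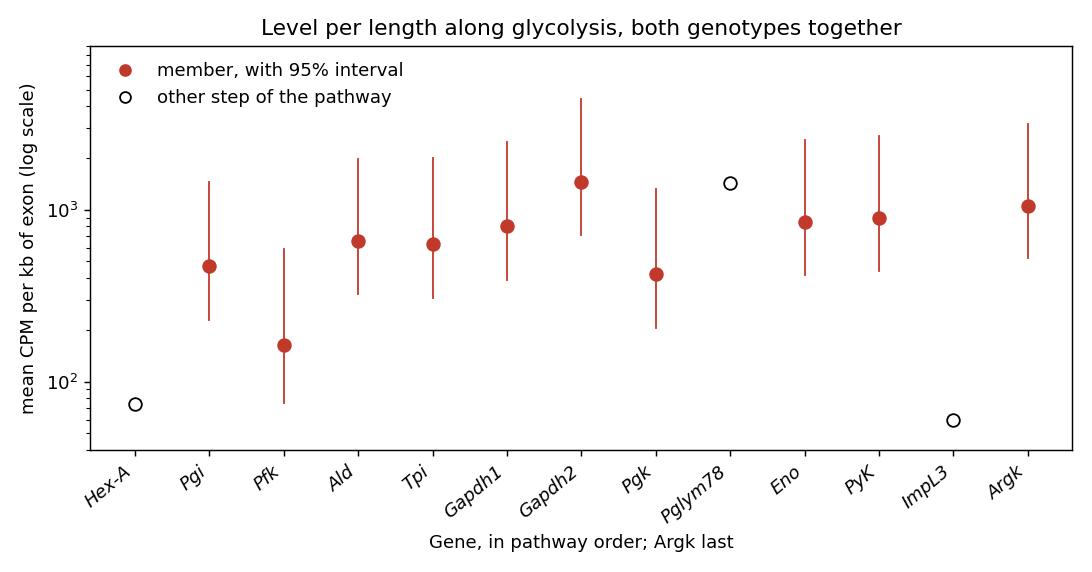
Mean CPM per kb of exon (log scale) over both genotypes along glycolysis, with Argk last. Red points are the 10 genes with 95% intervals; open points are Hex-A, Pglym78 and ImpL3. Hex-A and ImpL3 lie below all 10 genes, and Pfk is the lowest of the 10.

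The 10 genes lie on 5 chromosome arms. The union of exons ran from 1443 bases in Gapdh2 to 4377 in Pfk, and the coding part from 996 bases in both Gapdh genes to 3131 in Pfk. Annotated 3′ UTRs, where microRNA sites usually lie, spanned 132 bases in Pgk, 221 in Gapdh1, 327 in Gapdh2 and 495 in Argk, against 1669 in Ald, the longest of the 10. Exons of 3 genes overlap a gene on the opposite strand: Eno with Rrp40 over 9.74% of its exonic bases, Ald with asRNA:CR44321 over 8.87% and Pgk with Cwc25 over 3.08%. The library kit does not mark strand, so reads from these parts cannot be assigned by strand. Matches to the bantam seed in the 3′ UTRs were not analysed here.

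The rest of the energy pathway was followed in 7 lists of 66 genes. Of the 65 found under the listed symbols, 54 had reads, 26 with folds above and 28 below 0, and their median log2 fold was −0.05 in the authors' deposited table. An unadjusted p under 0.05 was reached by 1 of the 54 (1.85%, against 4.18% of all rows with reads), and an adjusted one by 0. That gene was CG4546, a relative of Argk.

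CG4546 was unread in bantam sponge, whereas its inferred level in scramble sponge was 71.7 CPM. The authors' deposited table gives it a p of 0.0380 by the exact test (adjusted p = 1). A genotype listed with no read can still hold some, and 3 reads over all libraries of bantam sponge would be 0.0175 CPM. That value treats reads as independent and leaves out the spread between libraries, so the level missed can be higher. Per length Argk stood 25.7-fold above CG4546 in scramble sponge, the genotype in which CG4546 was read, and 52.1-fold above it over both genotypes. The further relative CG5144 (Argk2), chosen after its values were seen, was at −4.27 mean log2 CPM in the authors' deposited table, near the limit of detection. Of the other genes of phosphagen and adenylate balance, 3 had folds above and 4 below 0. Adk1, an adenylate kinase, had a log2 fold of 0.22 (95% interval −3.31 to 3.75) and alc, a subunit of the energy sensor AMPK, of 0.43 (−3.11 to 3.97) in the authors' deposited table.

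Other glycolytic steps gave 7 folds above and 4 below 0 among 11 genes with reads, of 18 listed. Pglym78 had a log2 fold of 0.32 (95% interval −2.50 to 3.14) and Hex-A of 0.69 (−2.78 to 4.16) in the authors' deposited table (exact-test p = 0.814 and 0.670). The testis hexokinase genes Hex-t1 and Hex-t2, and Pglym87, a relative of Pglym78, had no read in any library. ImpL3 was at 173 CPM in bantam sponge and 57.7 CPM in scramble sponge, which the authors' deposited table gives as a log2 fold of 1.58 (−3.02 to 6.18; p = 0.451 by the exact test).

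Genes of sugar supply and storage had 7 folds above and 4 below 0 among 11 with reads. GlyP, glycogen phosphorylase, had a log2 fold of 0.74 (95% interval −2.22 to 3.70) and GlyS, glycogen synthase, of 0.17 (−3.21 to 3.54) in the authors' deposited table. The trehalose synthase gene Tps1, a fat body enzyme, had no read. The pentose phosphate pathway, which branches off at the substrate of Pgi, gave 6 folds above and 1 below 0. Counting only genes at 1 mean log2 CPM or above, the pathway gave 3 above and 1 below. Its most abundant genes, Rpi and Taldo, stand in the authors' deposited table with log2 folds of 0.52 (−4.66 to 5.70) and 0.84 (−10.38 to 12.07).

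In the remaining lists no gene passed the unadjusted threshold; over all genes with reads, 53.5% of folds were below 0. NADH shuttle genes gave 1 fold above and 5 below 0, with Mdh2 at −0.19 (95% interval −3.02 to 2.65) and Gpdh at −0.14 (−3.08 to 2.79) in the authors' deposited table. Of the genes of pyruvate entry to mitochondria 1 fold was above and 5 below 0. The pyruvate dehydrogenase subunit gene l(1)G0334 (Pdha) had a log2 fold of 0.01, too close to 0 for an interval, and CG7430, dihydrolipoamide dehydrogenase, of −0.60 (−3.66 to 2.46) in the authors' deposited table. Transcription factors known to act on glycolytic genes gave 1 fold above and 4 below 0. Among them sima, the fly HIF-1α, had −0.47 (−4.95 to 4.02) and bigmax, partner of the sugar sensor Mondo, −2.22 (−8.33 to 3.89) in the authors' deposited table.

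**Figure D5:**
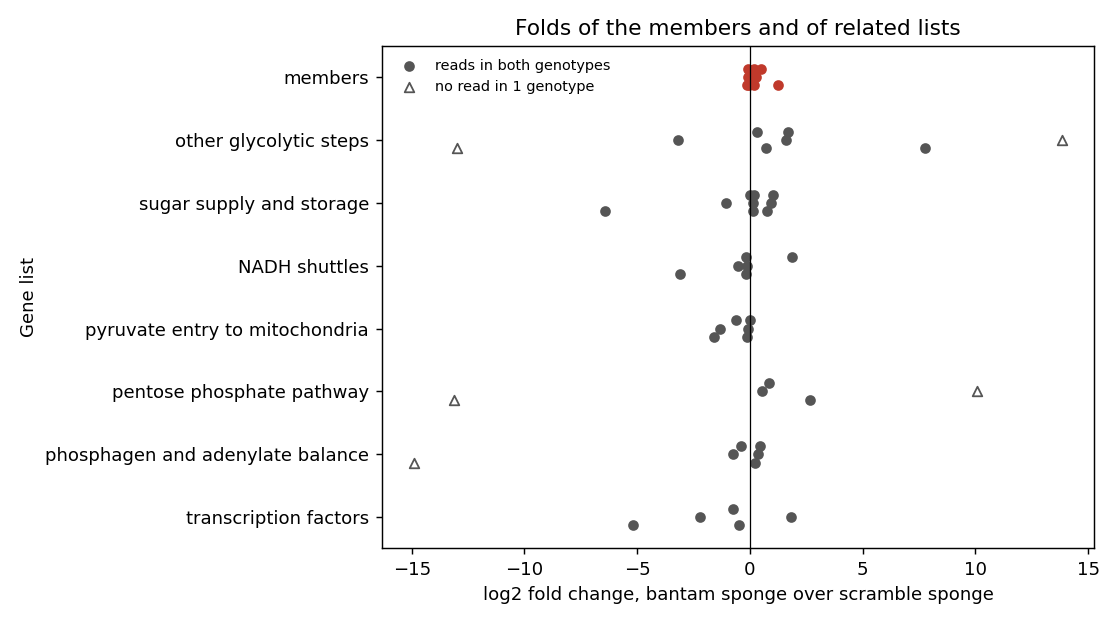
Log2 fold changes (bantam sponge over scramble sponge) of the 10 genes (red) and of the 45 listed genes at or above 0 in mean log2 CPM (grey), by list. The 10 genes cluster near 0 with Pfk to the right; triangles mark the 5 genes with no read in 1 genotype, whose plotted fold depends on the prior count.

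Markers of glia, which are rich in glycolytic enzymes, had a larger inferred sum in bantam sponge. The 9 glial markers summed to 2091 CPM in bantam sponge and 1013 CPM in scramble sponge, with 6 folds above and 3 below 0. Gs2, a glutamine synthetase gene and the largest part of that sum, had a log2 fold of 1.23 (95% interval −1.70 to 4.16) and nrv2, a sodium pump subunit gene, of 1.10 (−2.33 to 4.52) in the authors' deposited table (exact-test p = 0.384 and 0.498). The enzyme gene e (ebony) had 78.1 CPM in bantam sponge and was unread in scramble sponge, where the authors' deposited table lists p = 0.0367 by the exact test. Among all rows with reads, 4.18% had an unadjusted exact-test p under 0.05. The glial fate gene repo went the other way, with 0.983 CPM in bantam sponge and 102 CPM in scramble sponge. For repo the log2 fold was −6.70 (95% interval −13.50 to 0.10) in the authors' deposited table (exact-test p = 0.0525). Of the 10 genes 6 had folds above 0 and 4 below, beside 57.5% above 0 among all genes at or above the level of Pfk. The part of glial RNA in the folds of the 10 genes was not tested.

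Markers of blood cells, fat body, photoreceptors and Kenyon cells had folds mostly below 0. Over all genes with reads, 53.5% of folds were below 0 and 4.18% had an unadjusted exact-test p under 0.05. Counting only genes at 1 mean log2 CPM or above, hemocyte markers gave 1 fold above and 5 below 0. Fat body markers then gave 1 and 4, and photoreceptor and Kenyon cell markers 0 and 4 each. Hemocyte markers summed to 870 CPM in bantam sponge and 3804 CPM in scramble sponge (1 fold above, 5 below 0). The sum in scramble sponge was largely PPO1 and PPO2, prophenoloxidase genes. In bantam sponge it was mostly Pxn, at 728 CPM, which had 444 CPM in scramble sponge and the only fold above 0. PPO1 was unread in bantam sponge, against 1336 CPM in scramble sponge. In the authors' deposited table its p was 0.000634 by the exact test, and PPO2 had a log2 fold of −3.81 (95% interval −8.50 to 0.89). Photoreceptor markers summed to 99.1 CPM in bantam sponge and 249 CPM in scramble sponge (0 above, 7 below 0), with Arr1 at no read, Arr2 unread in bantam sponge. The authors' deposited table gives Arr2 a p of 0.0445 by the exact test, and norpA and trp log2 folds of −0.38 and −2.25. Fat body markers summed to 232 CPM in bantam sponge and 197 CPM in scramble sponge (2 above, 4 below 0). FASN1 alone made up 231 CPM of that sum in bantam sponge and 97.4 CPM in scramble sponge. In the authors' deposited table FASN1 had a log2 fold of 1.25. The yolk protein genes Yp1 and Yp3, both lower in bantam sponge, had exact-test p-values of 0.0335 and 0.0271 there. Kenyon cell markers summed to 263 CPM in bantam sponge and 616 CPM in scramble sponge (0 above, 5 below 0), and the authors' deposited table gives Dop1R1 and trio log2 folds of −1.18 and −0.92. No gene of these marker lists had an adjusted p under 0.05, and their part in the values of the 10 genes was not tested.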

How the data were processed

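Per the labels' protocols and series design, poly(A) RNA of sorted neurons was amplified by modified SMART-seq2 and made into Nextera XT libraries; 2 replicates were sequenced on NextSeq (75-base pairs) and 1 on HiSeq (150-base pairs). Which was which is not given, so platform could not be fitted. Per the submitters' processing notes, STAR, Picard, HTSeq and edgeR were used, with build dm6. The authors' deposited table gives, per the file headers, log2 fold changes, mean log2 CPM and p-values of the exact test, not adjusted. Values per library were not analysed here.

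Benjamini-Hochberg adjustment ran over 17117 rows, threshold 0.05, two-sided. Library sizes and a common dispersion of 4.50 were solved from genes with 1 read, taking default prior counts of 2 and 0.125; 141 of 147 other low genes (95.9%) fell within 1e-05 of a predicted value. For high counts the exact test follows a beta distribution whose shape was solved from fold and p. This gave dispersions and 95% intervals, checked on simulated libraries of equal size with a known dispersion. How well the intervals hold for libraries of unequal size was not tested. These intervals restate the deposited p. Genotype CPM took the 2 genotype means to average to the deposited mean; in 943 genes unread in 1 genotype this held within 0.0669 log2 units. A genotype counted as unread where the absolute fold exceeded the mean log2 CPM by over 9.3 (mean at least 0). Exon lengths and coordinates come from Ensembl release 115 on dm6 coordinates, matching 16998 rows. Named genes are the 10 genes and, per list, genes with an unadjusted p under 0.05 and the 2 most abundant. ImpL3, CG5144, Got1, Got2, Hex-t1, Hex-t2, Pglym87, Tps1, Mhc, Act88F, repo, Pxn, Arr1 and the genes ranked above Argk were named after their values were seen. Genes and lists were chosen with earlier results of these data known. Python 3.11.15, scipy 1.17.1 and pandas 2.3.3 were used.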

Additional observations from a re-analysis of the deposited data

How the results depend on the processing

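The count of 0 called genes among the 10 held under Holm adjustment, under Benjamini-Hochberg adjustment over genes with reads or over those at 1 mean log2 CPM or above, and at an unadjusted p under 0.05. Centring folds on the median of genes with reads turned 4 folds from negative to positive: Pgi to 0.0035, Tpi to 0.0732, Gapdh1 to 0.0376 and Pgk to 0.0534 in log2. It moved the median of the 10 folds, 0.10 as deposited, to 0.23, and leaving out Argk moved it to 0.16. Centring on genes at 5 mean log2 CPM or above (median 0.03) gave 0.07. With the common dispersion the intervals widened to 7.30 log2 units on either side. The highest level per length was 8.91 times the lowest by exon union, 7.50 times by longest transcript, where Argk came first, and 9.23 times by coding length. The single listed gene under an unadjusted p of 0.05 remained 1 gene at 1 mean log2 CPM or above. The alternatives for bantam seed matches were not run. No paired analysis was possible because the table holds no values per library, and for the same reason no replicate could be left out.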
